A study of Mus musculus with 10 samples.

Results

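The nuclear lamina is a meshwork of lamin filaments under the inner nuclear membrane that gives the nucleus its stiffness and anchors silent chromatin. B-type lamins are made in nearly all cells, whereas the A-type lamins, lamin A and lamin C from the gene Lmna, vary widely between cell types. Proteins of the inner membrane tie the lamina to chromatin, and SUN proteins of that membrane join nesprins of the outer membrane to form the LINC complex, the bridge between nucleus and cytoskeleton. Blood cells must deform their nuclei to leave the bone marrow, and the makeup of the lamina is one of the features that set how easily they do so.

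The 10 genes described here are the lamin genes Lmna, Lmnb1 and Lmnb2, the inner membrane genes Lbr, Emd and Tmpo, the LINC complex genes Sun1, Sun2 and Syne1, and Banf1, whose product binds DNA and LEM-domain proteins. They were chosen by gene family with the Mll-deficient against control differences of these same arrays already known, so their differences are a description and carry no p-value. They are 10 of the 18193 genes with at least 1 probe set paired with a single symbol, and 27 probe sets were annotated to them. A filter on the mean over all 10 arrays, the 40th percentile of all probe sets, was passed by 22 of the 27.

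The Mll-deficient group was 5 mice of genotype Mx1-cre;Mll F/F, in which both Mll alleles carry loxP sites and cre is driven by the interferon-responsive Mx1 promoter. The other group was 5 Mll F/F mice, which carry the same floxed alleles but no cre. Every mouse was a female of 8 weeks on the B6.SJL-Ptprca Pep3b/BoyJ background, and every mouse received 3 doses of pI:pC, an inducer of interferon, 48 hours apart (10 µg per gram plus 50 µg). Marrow was collected on day 6, and LSK/CD48- cells, a fraction enriched for haematopoietic stem cells, were sorted. RNA from 1500 to 10000 cells per mouse was amplified and read on 1 Affymetrix Mouse Genome 430 2.0 array for each mouse. Mx1-cre acts in all cells that respond to interferon and not in stem cells alone, and effects of cre and of Mll loss cannot be told apart in this design.

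Signals are in arbitrary units on a linear scale, and differences are Mll-deficient minus control on the scale log2(signal + 16), with the standard error (SE) of the limma fit. The array with the lowest median signal had 18.1 and the one with the highest 28.9 units. Control replicate 5 was the least like its group: it correlated with the other control arrays at 0.918 on average and had the highest 3' to middle ratio of Gapdh and Actb, 5.24 on the log2 scale. The targeted gene Kmt2a, which encodes Mll, read 216 ± 97.2 in Mll-deficient and 260 ± 85.8 in control cells (SD, n = 5 each) with 1427283_at, and 49.7 ± 32.0 in Mll-deficient and 74.7 ± 22.1 in control cells with 1452377_at. Neither passed the test over all probe sets (limma adjusted p = 0.634 and 0.347), and where they lie relative to the deleted part was not analysed here. The labels thus have no check from this gene. Of the sort markers, Kit read between 27.7 and 94.1 in Mll-deficient and between 101 and 181 in control cells (limma adjusted p = 0.155), and Cd48 between 68.7 and 172 in Mll-deficient and between 44.1 and 197 in control cells (limma adjusted p = 0.746), while Ly6a was not analysed here.

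Lmna, the gene of the A-type lamins, was the member with the largest difference. Its brightest probe set, 1421654_a_at, read 3068, 1630, 2243, 2427 and 2165 units in Mll-deficient replicates 1 to 5, against 393, 510, 289, 120 and 432 units in control replicates 1 to 5. The groups did not overlap: the lowest Mll-deficient array was more than 3 times as bright as the highest control array. The group means were 2307 ± 519 in Mll-deficient cells and 349 ± 151 in control cells (SD, n = 5 each). The log2 difference was 2.78 ± 0.31 (SE), or 6.87-fold. Ordered by size, this was number 9 among the 27022 tested probe sets in the higher direction. It was 2.89 without control replicate 5, and 1.11 when all 5 Lmna probe sets, the dim ones included, were averaged. In bulk RNA of a sorted fraction, more RNA per cell and more cells of a type that makes the RNA cannot be told apart.

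The other Lmna probe sets differed in what they showed. The second, 1457670_s_at, read 532, 143, 416, 620 and 890 units in Mll-deficient replicates 1 to 5, against 62.9, 70.2, 119, 23.2 and 199 units in control replicates 1 to 5. Here the groups overlapped by 1 array on each side, since Mll-deficient replicate 2 lay under control replicate 5. The log2 difference was 2.29 ± 0.44 (SE), or 4.89-fold. The third, 1425472_a_at, read 56.1, 18.4, 22.7, 41.2 and 72.4 units in Mll-deficient replicates 1 to 5, against 34.2, 11.7, 6.93, 29.6 and 45.9 units in control replicates 1 to 5. These groups overlapped over most of their range, with a difference of 0.49 ± 0.34 (SE). The remaining pair, 1452212_at and 1426868_x_at, lay under the filter, with means of 11.0 and 4.34 in Mll-deficient cells and 10.1 and 5.63 in control cells, and differences of 0.08 ± 0.24 and -0.08 ± 0.17. Which Lmna transcripts each probe set reads was not analysed here.

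**Figure D1:**
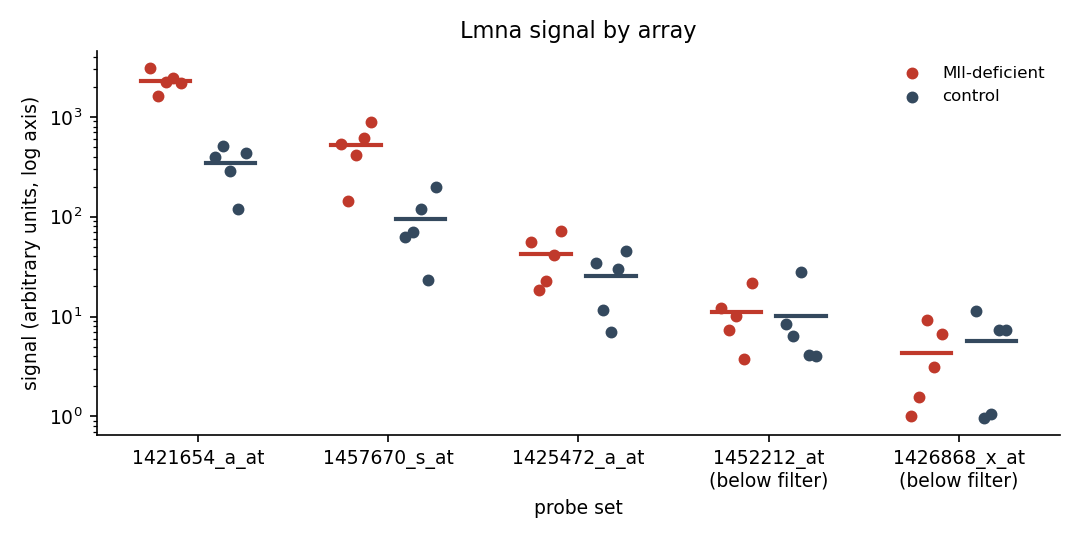
Signal of the 5 Lmna probe sets (x axis) on each array, in arbitrary units on a log axis. Each point is 1 mouse, Mll-deficient left and control right, and lines are group means (n = 5 each). The groups are apart at 1421654_a_at (means 2307 and 349), nearly apart at 1457670_s_at (520 and 94.8) and overlap at the others.

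Within each array the Lmna probe sets were also set beside each other, where only the shift between groups is read, since levels of different probes are not comparable. The log2 value of 1421654_a_at exceeded that of 1457670_s_at by 2.29 ± 0.77 in Mll-deficient and by 1.80 ± 0.69 in control arrays (SD, n = 5 each), and the ranges overlapped. It exceeded that of 1425472_a_at by between 4.63 and 5.87 in Mll-deficient arrays and by between 1.58 and 4.24 in control arrays, with no overlap. The dim 1425472_a_at lay near the median signal of the arrays, where the offset compresses changes, and its difference was 0.80 with an offset of 1 and 0.24 with one of 64. With each group's mean removed, the first 2 correlated over the 10 arrays at Pearson r = 0.62 (exact permutation p = 0.0658) and Spearman rho = 0.40 (exact permutation p = 0.311), and r was 0.58 without the 2 arrays farthest from the median. Control replicate 4 was the lowest array of its group for both, and Mll-deficient replicate 2 the lowest of its own.

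Lmna lies on chromosome 3, from 88481148 to 88509932 in GRCm38.p6, on the minus strand. The 2 promoter windows that the RefSeq table holds for it are printed below because Lmna carries the largest difference, with every CpG in capitals, since the CXXC domain of Mll binds unmethylated CpG. Each window runs from 250 bases before to 50 bases after an annotated start.
Lmna, chr3:88503303-88503602, minus strand: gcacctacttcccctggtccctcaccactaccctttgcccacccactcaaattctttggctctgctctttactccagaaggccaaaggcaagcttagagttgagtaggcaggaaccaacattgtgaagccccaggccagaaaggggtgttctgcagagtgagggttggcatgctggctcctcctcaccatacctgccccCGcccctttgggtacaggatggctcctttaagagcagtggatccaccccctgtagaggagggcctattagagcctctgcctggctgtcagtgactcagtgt
Lmna, chr3:88493263-88493562, minus strand: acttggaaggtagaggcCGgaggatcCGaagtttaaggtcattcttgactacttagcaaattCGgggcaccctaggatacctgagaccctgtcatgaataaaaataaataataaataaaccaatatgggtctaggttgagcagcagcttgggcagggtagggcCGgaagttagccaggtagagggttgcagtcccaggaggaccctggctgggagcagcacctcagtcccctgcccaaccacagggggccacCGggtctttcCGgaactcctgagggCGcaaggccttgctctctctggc

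The first window holds 1 CpG and the second 7, where the median of 32851 windows of the table is 7, and 5.43% and 47.9% of these windows hold fewer. Searched on both strands, the letters CACCC, the core read by Krüppel-like factors, occur 3 times in the first window and once in the second, and 57.5% of all windows hold them. The letters GATAA, read by GATA factors, occur in neither, against 25.4% of all windows. The CCAAT box letters occur in the second only (37.4% of all windows) and the GC box letters GGGCGG in the first only (35.7% of all windows). These are matches of letters and not binding sites. Both starts lie inside the span of the gene, whose 5' end on the minus strand is at 88509932. The table held no window at that end, so these counts do not describe a promoter there.

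The genes with the pattern most like that of Lmna were found by ranking all genes, each by its brightest tested probe set, on Pearson's r with 1421654_a_at over the 10 arrays. The leading 5 were Mt2, a metallothionein gene, at r = 0.992, Sphk1, a sphingosine kinase gene, at 0.986, Kel, which encodes the Kell blood group protein and is also on the erythroid marker list, at 0.985, Slc25a1, the mitochondrial citrate carrier gene, at 0.984, and Add2, an adducin gene of the red cell membrane skeleton, at 0.983. With each group's mean removed, r was 0.942, 0.883, 0.895, 0.866 and 0.881 in the same order. Mt2 read 2631 ± 806 in Mll-deficient and 266 ± 149 in control cells (SD, n = 5 each), and Add2 read 423 ± 107 in Mll-deficient and 45.9 ± 28.6 in control cells. These genes were ranked by the values themselves, so the coefficients are a description.

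Markers of other cell types that a sorted fraction could hold were read on the same arrays. The marker lists were chosen with earlier results of these data known, so counts from them are a description. Of 17 tested erythroid markers 12 were higher, 0 lower and 5 did not pass, where 2.95% of all 12580 genes, each by its brightest probe set, were higher. The summed signal of the erythroid markers lay between 18074 and 20255 units in Mll-deficient arrays and between 4027 and 8382 in control arrays. The 5 that did not pass were Slc4a1, Alas2, Sptb, Epb42 and Car2. Slc4a1 ran from 150 to 352 in Mll-deficient and from 11.1 to 2751 in control arrays. Alas2 ran from 25.1 to 65.7 in Mll-deficient and from 2.32 to 130 in control arrays. Klf1, the erythroid transcription factor, read 2860 ± 774 in Mll-deficient and 354 ± 145 in control cells (SD, n = 5 each). The part of the erythroid markers in the Lmna difference was not tested. Also tested were 11 megakaryocyte, 18 granulocyte and monocyte, 5 T and NK cell, 5 B cell and 8 stroma and endothelium genes. Of these, 0 passed in limma in either direction. At an unadjusted p under 0.05 the lists held 2, 8, 1, 0 and 0 genes in that order. The 2 megakaryocyte genes were lower and the 1 T and NK cell gene higher. Of the 8 granulocyte and monocyte genes, Mpo, Elane, Prtn3, Ctsg and Ms4a3 were higher, and Mmp8, Mmp9 and Itgam lower. The share of all genes under that p was not counted here, so nothing is read from these numbers. The stroma and endothelium list summed to between 378 and 589 units in Mll-deficient and between 331 and 982 units in control arrays. Its genes Col3a1, Lepr, Cdh5, Pecam1, Emcn and Tie1 lay under the filter, and Col1a1, Col1a2, Pdgfra, Pdgfrb, Cxcl12, Kitl, Sparc and Kdr passed it. Pdgfrb was the brightest, averaging 288 in Mll-deficient and 397 in control cells, with Col1a2 next at 42.8 and 49.4. The megakaryocyte list summed to between 2271 and 4120 units in Mll-deficient and between 2575 and 6177 in control arrays, and Gp6 lay under the filter. The granulocyte and monocyte list summed to between 125180 and 208451 units in Mll-deficient and between 120678 and 176274 in control arrays. Cd3e and Cd3g of the T and NK cell list lay under the filter. That list summed to between 706 and 1537 in Mll-deficient and between 407 and 715 in control arrays. Most of the sum was Nkg7, which averaged 871 in Mll-deficient and 447 in control cells, with Zap70 next at 79.1 and 67.6. The B cell list summed to between 938 and 3777 in Mll-deficient and between 757 and 4974 in control arrays. On average most of that sum was Vpreb1, at 1751 in Mll-deficient and 2283 in control cells, with Cd79b next at 554 and 566. Of 9 stem cell genes, 2 fell, Mecom and Hlf, and 7 did not pass, where 1.3% of all genes fell, and at an unadjusted p under 0.05 there were 5 lower and 0 higher, with a list median of -0.66.

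The B-type lamin genes differed far less than Lmna. Lmnb1, on chromosome 18, encodes lamin B1 and read 575, 670, 552, 504 and 713 units with 1423521_at in Mll-deficient replicates 1 to 5, against 693, 684, 767, 652 and 1063 units in control replicates 1 to 5. Mll-deficient replicates 1, 3 and 4 lay below every control array, but the groups overlapped, and the log2 difference was -0.34 ± 0.20 (SE). The other Lmnb1 probe set, 1423520_at, read 286 ± 90.2 in Mll-deficient and 279 ± 16.8 in control cells (SD, n = 5 each), a difference of -0.01 ± 0.22. Lmnb2, which encodes lamin B2 and lies on chromosome 10 from 80901363 to 80918245 (positions of all members are in GRCm38.p6), read 196, 267, 215, 166 and 156 units with 1448531_at in Mll-deficient replicates 1 to 5, against 279, 268, 145, 200 and 125 units in control replicates 1 to 5. The groups covered the same range, with a difference of 0.01 ± 0.25 (SE). Its dimmer probe set 1451849_a_at differed by -0.14 ± 0.31, with overlapping groups.

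The balance of A-type to B-type lamin transcripts was compared within each array as a difference of log2 values, of which again only the shift between groups is read. Lmna over Lmnb1, by their brightest probe sets, lay between 1.26 and 2.38 in the Mll-deficient arrays and between -2.30 and -0.41 in the control arrays, with no overlap. Its mean was 1.89 ± 0.46 in Mll-deficient and -1.23 ± 0.71 in control arrays (SD, n = 5 each), a shift of 3.12. Such a shift follows from the differences of the probe sets given above and adds nothing to them. The dimmer Lmnb1 probe set, 1423520_at, was not used and differed by -0.01. Lmna over Lmnb2 lay between 2.54 and 3.86 in the Mll-deficient arrays and between -0.67 and 1.67 in the control arrays, again with no overlap and with a shift of 2.77.

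Lbr encodes the lamin B receptor, an inner membrane protein that binds B-type lamins and heterochromatin and is needed for the lobed nucleus of neutrophils. On chromosome 1 from 181815315 to 181842401, it had 1 probe set, 1415829_at, which read between 885 and 1370 units in Mll-deficient cells (median 997) and between 812 and 1996 in control cells (median 1321). Control replicate 5 was the lowest of all 10 arrays, and control replicate 4 the highest, so the groups overlapped, with a difference of -0.35 ± 0.23 (SE). Tmpo, on chromosome 10 from 91147571 to 91181752, encodes the lamina-associated polypeptide 2 proteins, LEM-domain proteins that bind lamins and Banf1. Its brightest probe set, 1452036_a_at, read 1020 ± 93.1 in Mll-deficient and 1314 ± 319 in control cells (SD, n = 5 each), a difference of -0.33 ± 0.20, and the other tested pair differed by -0.01 ± 0.21 and -0.13 ± 0.42. A further 3 Tmpo probe sets lay under the filter, with no array above 24 units.

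Emd, the gene of the LEM-domain protein emerin, lies on chromosome X from 74254674 to 74261563 and had the widest spread within groups of the members on the log2 scale. It read 744, 300, 193, 218 and 395 units in Mll-deficient replicates 1 to 5, against 477, 163, 331, 29.5 and 220 units in control replicates 1 to 5. Control replicate 4 was far below the others, and the groups overlapped, with a difference of 0.77 ± 0.50 (SE). Without that array the difference was 0.24. Banf1, the gene of the barrier-to-autointegration factor, which gathers the nuclear membranes round the chromosomes after mitosis, lies on chromosome 19 from 5364633 to 5366876. It read 1048 ± 196 in Mll-deficient and 760 ± 288 in control cells (SD, n = 5 each) with 1421082_s_at. Its 3 probe sets differed by 0.54 ± 0.27, 0.42 ± 0.29 and 0.50 ± 0.27 (SE), all above 0, with overlapping groups in each.

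Syne1, the LINC complex gene that encodes nesprin-1, was lower in Mll-deficient cells. Nesprin-1 is a giant spectrin-repeat protein of the outer nuclear membrane that binds actin. Its brightest probe set, 1455493_at, read 1540, 1742, 1057, 1040 and 683 units in Mll-deficient replicates 1 to 5, against 3365, 2909, 2447, 3330 and 2423 units in control replicates 1 to 5. The groups did not overlap, and the log2 difference was -1.30 ± 0.24 (SE), or 2.47-fold lower, and -1.36 without control replicate 5. The second, 1455225_at, read 53.9, 47.2, 51.2, 41.9 and 54.8 units in Mll-deficient replicates 1 to 5, against 121, 109, 80.7, 131 and 106 units in control replicates 1 to 5. These groups were again apart, with a difference of -0.92 ± 0.22 (SE), though its call was lost when any of 5 arrays was dropped (Mll-deficient replicates 3, 4 and 5 and control replicates 1 and 4). The dimmest, 1421545_a_at, read 20.6, 2.20, 8.93, 19.3 and 2.03 units in Mll-deficient replicates 1 to 5, against 27.0, 35.4, 35.4, 41.9 and 23.2 units in control replicates 1 to 5. It had no overlap either, with a difference of -0.92 ± 0.26 (SE). At such low signals the size depends on the offset: it was -1.97 with an offset of 1 and -0.38 with one of 64. This probe set passed the filter only through the control arrays, with mean log2 values of 4.67 in Mll-deficient and 5.59 in control cells and a filter at 4.82, so it had to differ and adds nothing to the brighter pair.

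**Figure D2:**
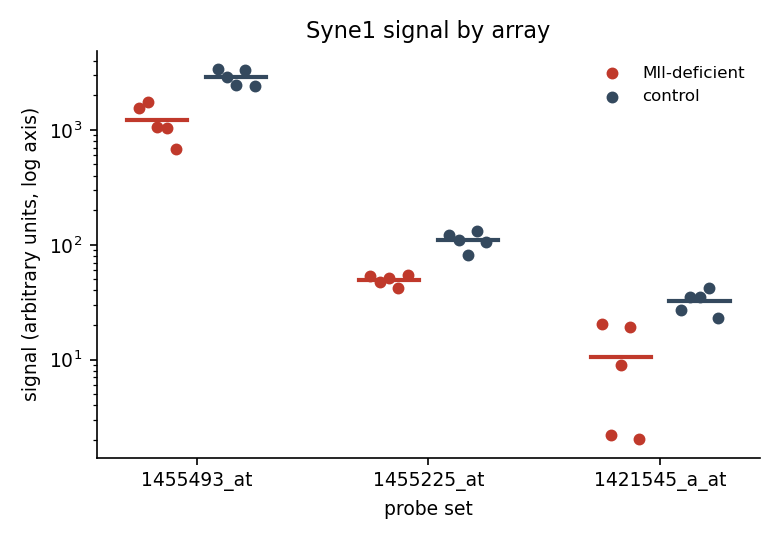
Signal of the 3 Syne1 probe sets (x axis) on each array, in arbitrary units on a log axis. Each point is 1 mouse, Mll-deficient left and control right, and lines are group means (n = 5 each). The groups are apart at each probe set, with means of 1212 and 2895 units at the brightest, 1455493_at.

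Syne1 lies on chromosome 10, from 5020192 to 5550692 in GRCm38.p6, on the minus strand, and spans 530501 bases. Of its 3 promoter windows in the RefSeq table the most upstream is printed, as the member that differed in the direction opposite to Lmna, with every CpG in capitals.
Syne1, chr10:5550643-5550942, minus strand: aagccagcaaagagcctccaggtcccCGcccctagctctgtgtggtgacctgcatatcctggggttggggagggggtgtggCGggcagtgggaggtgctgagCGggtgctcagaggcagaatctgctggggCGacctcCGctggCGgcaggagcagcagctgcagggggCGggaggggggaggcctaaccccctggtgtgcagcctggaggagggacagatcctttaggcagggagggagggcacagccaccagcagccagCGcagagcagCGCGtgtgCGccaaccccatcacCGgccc

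It holds 12 CpG, and 60.4% of all windows hold fewer, while the other pair of Syne1 windows hold 3 and 4. CACCC occurs in it 2 times and GGGCGG 2 times, and the other pair hold neither. Of the members, 9 had a window among those analysed, 16 windows in all. Of these 9 genes, 5 (Banf1, Lbr, Sun1, Sun2 and Tmpo) had one with at least 36 CpG, where 93.8% of all windows hold fewer than 36. The count is of genes, some with several windows, and the share is of windows, so nothing is read from it. Windows on chromosome 18, where Lmnb1 lies, were not analysed here and are not among the 32851.

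The SUN-domain genes, whose proteins hold nesprins from within the nucleus, had smaller differences than Syne1 and overlapping groups. Sun2, on chromosome 15 from 79724068 to 79742536, read 2248, 1894, 2308, 2635 and 1308 units with 1433832_at in Mll-deficient replicates 1 to 5, against 4524, 2538, 2371, 2448 and 5440 units in control replicates 1 to 5. The control values were spread widely, with replicates 1 and 5 far above the rest, and Mll-deficient replicate 4 lay above 3 control arrays. The log2 difference was -0.68 ± 0.27 (SE), and -0.49 without control replicate 5, and the other Sun2 probe set, 1439238_at, differed by -0.20 ± 0.35. Sun1, on chromosome 5 from 139200564 to 139249839, read 254 ± 37.1 in Mll-deficient and 245 ± 59.9 in control cells (SD, n = 5 each) with 1426666_a_at, a difference of 0.07 ± 0.21 (SE), and its dimmer probe set differed by 0.14 ± 0.27.

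Over all 22 member probe sets that passed the filter, the median difference was -0.01, and that of all 27022 tested probe sets was -0.07. In the limma fit over all tested probe sets at an adjusted p of 0.05, 2 of the 22 were higher, both of Lmna, and 2 were lower, both of Syne1. Of all tested probe sets 2.12% were higher and 1.16% lower by that measure. Groups without overlap were seen at 1 of the 22 in the higher direction and at 3 in the lower, the dim Syne1 probe set included, where 3.26% and 2.42% of all tested probe sets had none. Since the members were chosen with this contrast known, nothing is read from these counts. The 16 tested probe sets of the other 8 genes had differences between -0.68 and 0.77, with 7 above 0 and a median of -0.01.

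**Figure D3:**
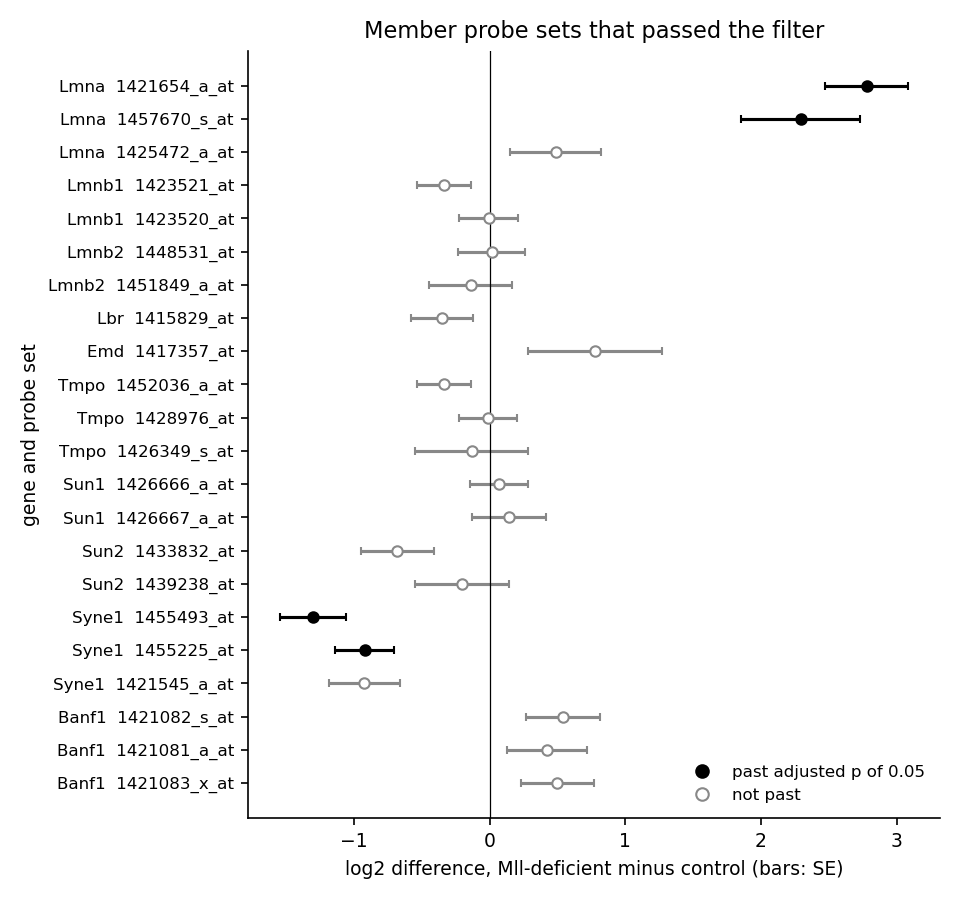
Log2 difference, Mll-deficient minus control, of the 22 member probe sets that passed the filter (y axis), with bars of 1 SE (n = 5 arrays each). Filled points passed an adjusted p of 0.05 over all 27022 tested probe sets, and open points did not. The filled points are 2 of Lmna (2.78 and 2.29) and 2 of Syne1 (-1.30 and -0.92). Members were chosen with this contrast known, so the filling is a description and not a test.

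Other genes of the nuclear envelope were read from 5 lists of 81 genes, 76 of which were tested, each by its brightest probe set. These lists too were chosen with earlier results of these data known, so their counts are a description. Of the 76, 2 rose, 0 fell and 74 did not pass, with a median difference of 0.17, where 2.95% of all 12580 genes rose and 1.3% fell and the median was -0.04. Both rises were nuclear pore genes. Nup43, a subunit of the outer ring of the pore, read 276 ± 37.9 in Mll-deficient and 133 ± 9.07 in control cells (SD, n = 5 each), a difference of 0.96 ± 0.20 (SE, limma adjusted p = 0.0157). Its other probe set, at 0.87 ± 0.27, did not pass (limma adjusted p = 0.0979). Nup93, a scaffold subunit of the inner ring, read 706 ± 115 in Mll-deficient and 366 ± 88.3 in control cells, a difference of 0.93 ± 0.22 (SE, limma adjusted p = 0.0296).

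Of 27 pore genes tested, 23 lay above 0, and the list ran from -0.13 to 0.96 with its median at 0.37. The median of all 12580 genes was -0.04, and their share above 0 was not counted here. At an unadjusted p under 0.05, 6 pore genes were higher and 0 lower. Nup37, with an unadjusted limma p of 0.0489, had an adjusted p of 0.270. The share of all genes under an unadjusted p of 0.05 was not counted here, so nothing is read from such counts in any list. Among S phase markers on the same arrays 3 of 19 were higher and 0 lower (9 and 0 at an unadjusted p under 0.05), with a median of 0.46, and among mitosis markers 0 of 19 passed in limma and 2 had an unadjusted p under 0.05, both lower, with a median of 0.14. The part of cell cycle genes in the values of the pore list was not tested. The call of Nup93 was lost when any of 6 arrays was dropped ( Mll-deficient replicates 1, 2, 3 and 5 and control replicates 1 and 3), and that of Nup43 without Mll-deficient replicate 5.

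Among 15 further inner membrane, LINC and torsin genes 0 passed in limma, and at an unadjusted p under 0.05 there was 1. That was Syne2, the gene of nesprin-2 and closest relative of Syne1 on the list, which read 118 ± 76.4 in Mll-deficient and 201 ± 47.1 in control cells (SD, n = 5 each), a difference of -0.90 ± 0.37 (SE, limma adjusted p = 0.198). The median of that list was -0.05. Of 6 prelamin processing genes 0 passed in limma, with 1 at an unadjusted p under 0.05, the farnesyltransferase gene Fntb (0.63 ± 0.25, limma adjusted p = 0.178). Zmpste24, the protease that trims prelamin A, had a difference of -0.51 ± 0.25 (limma adjusted p = 0.293). Of 12 genes of chromatin proteins linked to the lamina 0 passed in limma, with 1 at an unadjusted p under 0.05, Rb1, whose protein is stabilised by A-type lamins (-0.84 ± 0.26, limma adjusted p = 0.0930). Of 16 genes of envelope breakdown and sealing 0 passed in limma, with 2 at an unadjusted p under 0.05, in opposite directions. They were Vps4b, an ATPase that disassembles the membrane-sealing ESCRT machinery (-0.74 ± 0.23, limma adjusted p = 0.0815), and Lpin1, a lipin phosphatase gene (0.71 ± 0.25, limma adjusted p = 0.130).

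**Figure D4:**
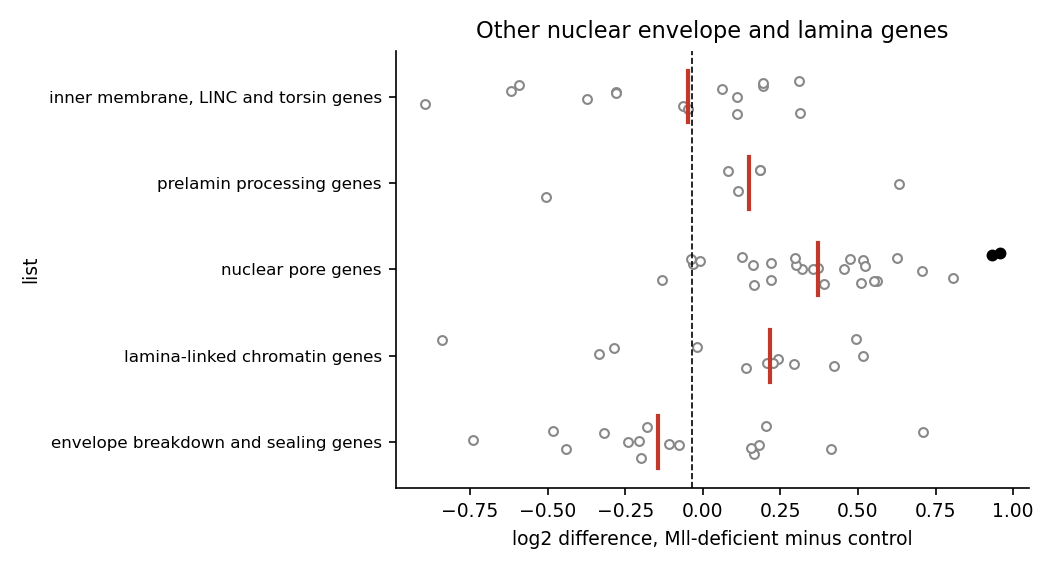
Log2 difference, Mll-deficient minus control, of each tested gene (points, 1 probe set each) in 5 lists of other nuclear envelope and lamina genes. Red bars are list medians, the dashed line is the median of all 12580 genes (-0.04), and the 2 filled points, Nup43 and Nup93, passed an adjusted p of 0.05.

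Relations that do not use the contrast between the groups were measured after each group's mean had been removed. Each member was set against 3 measures per array, the mean of the mitosis markers, the mean of the S phase markers and the 3' to middle ratio, a sign of RNA quality, which gave 30 relations over 10 arrays. Of these, 8 had an unadjusted exact permutation p under 0.05, and 1 passed after Benjamini-Hochberg adjustment. The share of all genes related to these measures was not counted here, so these counts are not read as a trait of the members. Lmnb2 fell as the 3' to middle ratio rose, with Pearson r = -0.93 (exact permutation p = 0.000347, adjusted p = 0.0104) and Spearman rho = -0.90 (exact permutation p = 0.00431, adjusted p = 0.129). Without the 2 arrays farthest from the median of the ratio, control replicate 5 among them, r was -0.95, and with the mean of all Lmnb2 probe sets it was -0.79 (exact permutation adjusted p = 0.187).

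The ratio itself averaged 3.16 ± 0.60 in Mll-deficient and 2.97 ± 1.42 in control arrays (SD, n = 5 each). Lmna by its brightest probe set had r = 0.14 with it (exact permutation p = 0.758) and rho = -0.10 (exact permutation p = 0.842), and r was 0.18 without those 2 arrays. With the mean of all Lmna probe sets r was 0.61 (exact permutation p = 0.0592, adjusted p = 0.198) and rho 0.60 (exact permutation p = 0.109). Syne1 had r = -0.61 (exact permutation p = 0.00618, adjusted p = 0.0901) and rho = -0.85 (exact permutation p = 0.00931, adjusted p = 0.140), and r was -0.84 without them. After quantile normalization Syne1 passed the adjustment too, with r = -0.71 (exact permutation p = 0.00257, adjusted p = 0.0385), and with the mean of its probe sets r was -0.56 (exact permutation p = 0.0593, adjusted p = 0.198). With the ratio as a covariate the difference of Lmna at 1421654_a_at was 2.77 and that of Syne1 at 1455493_at was -1.26.

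**Figure D5:**
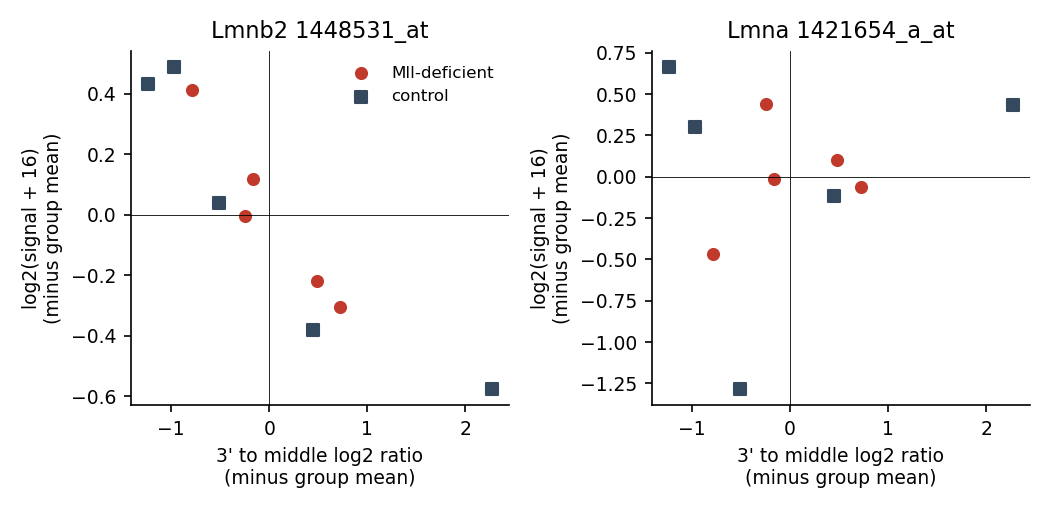
Log2(signal + 16) of Lmnb2 (left) and Lmna (right) by their brightest probe sets against the 3' to middle log2 ratio of Gapdh and Actb, each minus its group mean. Each point is 1 array (5 Mll-deficient, 5 control), with r = -0.93 for Lmnb2 and 0.14 for Lmna.

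Lmnb1, whose protein is lost in senescent cells, had r = -0.60 with the mitosis markers (exact permutation p = 0.0892, adjusted p = 0.243) and rho = -0.35 (exact permutation p = 0.380). Lmnb2 had r = 0.87 with them (exact permutation p = 0.0101, adjusted p = 0.0901) and rho = 0.75 (exact permutation p = 0.0336). Banf1 had r = 0.77 (exact permutation p = 0.0120, adjusted p = 0.0901) and rho = 0.70 (exact permutation p = 0.0522). Lbr had r = 0.74 (exact permutation p = 0.0279, adjusted p = 0.140) and rho = 0.70 (exact permutation p = 0.0522). Syne1 had r = 0.64 (exact permutation p = 0.0245, adjusted p = 0.140) and rho = 0.75 (exact permutation p = 0.0336). Without the 2 arrays farthest from the median of the markers, r was -0.29 for Lmnb1, 0.74 for Lmnb2, 0.71 for Banf1, 0.62 for Lbr and 0.63 for Syne1, and none of these relations passed the adjustment. With the 3' to middle ratio each of these genes had r of the opposite sign. It was 0.69 for Lmnb1, -0.93 for Lmnb2, -0.82 for Banf1, -0.76 for Lbr and -0.61 for Syne1. For Banf1 and Lbr the exact permutation p was 0.0359 and 0.0449 (adjusted p = 0.154 and 0.168). Whether these genes follow the markers or the ratio was not tested.

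Probe sets of 1 gene varied from array to array with little in common in some members. Among 16 pairs of tested probe sets of the same gene, with group means removed, r lay between -0.32 and 0.76, 13 pairs had r above 0 and 0 passed the exact permutation test after adjustment, while 1 had an unadjusted p under 0.05. That was a Tmpo pair, 1452036_a_at and 1426349_s_at, with r = 0.76 (exact permutation p = 0.0250, adjusted p = 0.400) and rho = 0.85 (exact permutation p = 0.00931), and r = 0.64 without the 2 farthest arrays. The Sun2 pair had r = 0.07 and rho = 0.05 (exact permutation p = 0.819 and 0.942), and the Lmnb1 pair r = -0.11 and rho = -0.30 (exact permutation p = 0.776 and 0.462). The brighter Syne1 pair had r = 0.21 and rho = 0.25 (exact permutation p = 0.481 and 0.544), and r = 0.73 without the 2 farthest arrays.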

How the data were processed

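RNA of sorted LSK/CD48- cells was measured on 10 arrays, 5 Mll-deficient and 5 control, grouped by their titles. The deposited values are linear signal intensity, for which the submitters' processing notes name MAS5 5.0. The 2% trimmed mean of every array was 150.001, so the authors had scaled each array to a constant. This removes differences in total RNA, and RNA amplification favours 3' ends. Of 45101 probe sets, 64 controls were left out. The platform annotation gave 34958 probe sets 1 symbol and 932 several; names were updated by Entrez ID through RefSeq GRCm38.p6, which also supplied promoter windows. Detection calls and scanner files were not used here.

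Values were taken as log2(signal + 16), which understates changes of dim genes, and fitted with limma 3.58.1 in R 4.3.3 (intensity trend, two-sided, Benjamini-Hochberg adjustment over 27022 probe sets, threshold 0.05). Members have no p for the contrast, since members and lists were chosen with earlier results of these data known. Standard errors of members come from the fit without the filter. Named genes were the members with all their probe sets, list genes past the threshold or else the one with the smallest p, the 5 genes most like Lmna, the markers and Kmt2a; Zmpste24, Lpin1, Mt2 and Add2 as examples, and the 16 pairs of probe sets, were chosen after their values were seen. Relations used all 14400 pairings within groups, two-sided, with a smallest possible p of 6.94e-05. The fit was tested on simulated data. Alternatives covered offset, normalization, filter, probe set choice, variance prior, array weights, replicate block, RNA quality, thresholds and leaving out each array. The number of arrays limits the precision.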

Additional observations from a re-analysis of the deposited data

Results flagged for a closer look

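In 44 groups of 5 arrays (22 member probe sets that passed the filter, each in both groups), 1 held an array far from the other 4 by Dixon's criterion, where chance alone marks about 1 group in 20. This was Lmnb2 at its dimmer probe set, 1451849_a_at, which read 37.7 units in Mll-deficient replicate 2 and between 22.7 and 26.1 units in the other Mll-deficient arrays. The control arrays of the same probe set ran from 9.79 to 65.7 units. No explanation of it was tested.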

How the results depend on the processing

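Of 436 values under alternatives for 25 results, 408 stayed near the main value, within 1 SD between replicates for a difference or within 1.5 times for a count, and 28 moved. No called difference turned its sign, but 24 values of 8 uncalled differences did, all with a main value between -0.20 and 0.14; the turned values lay between -0.13 and 0.18. Emd ran from 0.24 to 1.10 without 1 array. The differences of Lmna at 1421654_a_at and 1457670_s_at and of Syne1 at 1455493_at lay, in the 10 fits that left out 1 array, between 2.46 and 2.95, between 1.97 and 2.68, and between -1.45 and -1.12. The Lmna value moved to 1.11 when all 5 Lmna probe sets, dim ones included, were averaged. Syne1 at 1455225_at fell short of the threshold without Mll-deficient replicates 3, 4 or 5 and without control replicates 1 or 4, and its difference was -1.11 with offset 1 and -0.60 with offset 64. The count of probe sets past the threshold, 887, was 588 with no filter, 2433 with the RNA quality covariate, 1707 and 187 at thresholds of 0.1 and 0.01, and between 303 and 1131 without 1 array. It was 582, 380 and 303 without Mll-deficient replicates 1, 3 and 5 and 401, 418 and 436 without control replicates 1, 3 and 4. Centring on medians gave 81.4% of 683 calls as higher, against 64.6% in the main fit. The count of related genes, 2, was 1 with the replicate block, 7 with the covariate, 4 with averaged probe sets, 5 and 0 at thresholds of 0.1 and 0.01, and between 0 and 3 without 1 array. The count of relations past the adjustment, 1, was 2 after quantile normalization (Lmnb2 and Syne1, both with RNA quality) and 0 with averaged probe sets. In the paired check, same-numbered arrays correlated between -0.18 and 0.24 in their deviations from the group means, and only replicate 5 matched its own number best, so the numbers did not pair the arrays. The replicate block called 781 probe sets and lost Nup93. The causes of these shifts were not tested.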
